A study of Rattus norvegicus with 4 samples.

Results

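Autophagy machinery was examined here in NR8383 cells, a rat alveolar macrophage line started from lung lavage, as a list of 35 genes. The list covers the proteins that start, build, extend and close an autophagosome and the receptors that bring cargo to it. Members were found by their probes: 46 of the 45598 non-control probes carried an accession of 32 of the 35 genes, out of 16581 genes with a named probe. Atg2b, Atg4b and Pik3r4 had no named probe and are not described further. The study exposed NR8383 cultures, after 20 passages per the labels, to NM403, a carbon nanotube, at a labelled dose of 0.8 cm²/cm² during 4 h. The labels also give 15% serum and a seeding time of 48 h for all 4 cultures. The 4 arrays analysed here, replicates 1 to 4, are 4 biological replicates of that 1 exposed group. The unexposed cultures that the design text names were not analysed here, so these data hold no test of what NM403 did to any member and every value below describes exposed cells.

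In autophagy a flat membrane sac forms in the cytoplasm, grows around cargo and closes into an autophagosome, which then fuses with a lysosome. The ULK1 kinase complex starts the process, and the VPS34 lipid kinase complex marks the site with a phosphoinositide. ATG9 vesicles and ATG2 lipid transfer proteins supply membrane, and WIPI proteins read the lipid mark. A pair of ubiquitin-like conjugation systems then attaches ATG8 family proteins (LC3 and GABARAP) to the membrane lipid phosphatidylethanolamine, and ATG4 proteases prepare and recycle the ATG8 proteins. Cargo receptors such as p62, encoded by Sqstm1, bind ubiquitin on one side and ATG8 proteins on the other. In macrophages the same conjugation system also coats some phagosomes with LC3, and damaged lysosomes are marked with ubiquitin and cleared by autophagy.

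A level is the log2 signal of a gene's brightest probe minus the 75th percentile that the array's detected probes reached. Each mean ± SD is over the 4 arrays (n = 4). A level describes 1 probe across arrays and does not rank one gene against another. Where 4 levels are given, they are those of replicates 1, 2, 3 and 4 in this order, and a range is the highest array over the lowest. A gene was called detected where Feature Extraction, the scanner software, flagged a probe as well above background. Between 45.9% and 50.8% of the 58717 non-control spots of an array were well above background, against 2.27% to 3.57% of the 308 negative control spots. Of 11 quality measures of the software, replicate 4 had 2 out of range and the other arrays 0. The arrays fell into pairs: over 7935 named genes detected on all arrays, replicates 1 and 3 had a median absolute log2 difference of 0.07, replicates 2 and 4 one of 0.09, and the other 4 pairs of arrays 0.36 to 0.38. In the members these medians were 0.10, 0.07 and 0.28 to 0.36. Precision is limited by there being 4 arrays, and fewer cells that carry a transcript cannot be told from less of it per cell.

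The macrophage label held for most of its markers. On all 4 arrays 10 of 12 macrophage markers were detected, among them Cd68, Lyz2, Csf1r and Spi1, while Marco and Adgre1 were called on 0 arrays. Detection on all arrays held for 0 of 10 alveolar epithelial, 1 of 7 neutrophil (Camp), 2 of 8 T cell (Cd3d and Cd4), 1 of 8 fibroblast (Dcn) and 3 of 7 endothelial markers (Cdh5, Pecam1 and Vwf). Of all named genes, 47.9% were detected on all arrays, and the endothelial share, 3 of 7, lay near that. The summed level of the macrophage markers (linear, with the 75th percentile as 1) ran from 79.2 to 99.3 over the arrays. The sums ran from 0.0449 to 0.114 for the epithelial, 0.152 to 0.185 for the T cell and 0.279 to 0.382 for the fibroblast markers. Such a sum adds different probes, some of them not above background, so it is read across arrays within 1 list and not between lists. The macrophage sum was 79.2 on replicates 1 and 3, 99.3 on replicate 2 and 98.1 on replicate 4, but 4 of the 10 detected macrophage markers had replicates 1 and 3 highest, among them Ptprc at 2.16, 0.77, 2.11 and 0.81. The endothelial sum (1.46, 2.48, 1.73 and 2.57 on replicates 1, 2, 3 and 4) and the neutrophil sum (0.198, 0.311, 0.185 and 0.252) were also higher on replicates 2 and 4. Of the 3 detected endothelial markers, Vwf (0.25, 1.11, 0.47 and 1.20) and Cdh5 had replicates 2 and 4 highest. Pecam1 read -2.09, -2.18, -1.94 and -2.21, highest on replicates 1 and 3. The part of these other genes in the members' values was not tested.

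Transcripts of nearly all of the measured machinery were detected in the exposed cells. Of the 32 members with a probe, 28 were detected on all 4 arrays (87.5%), where 47.9% of all named genes were. Atg13 and Rb1cc1 were detected on 3 arrays, Uvrag on 2, and Wipi1 on no array, as were 40.4% of all named genes.

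**Figure D1:**
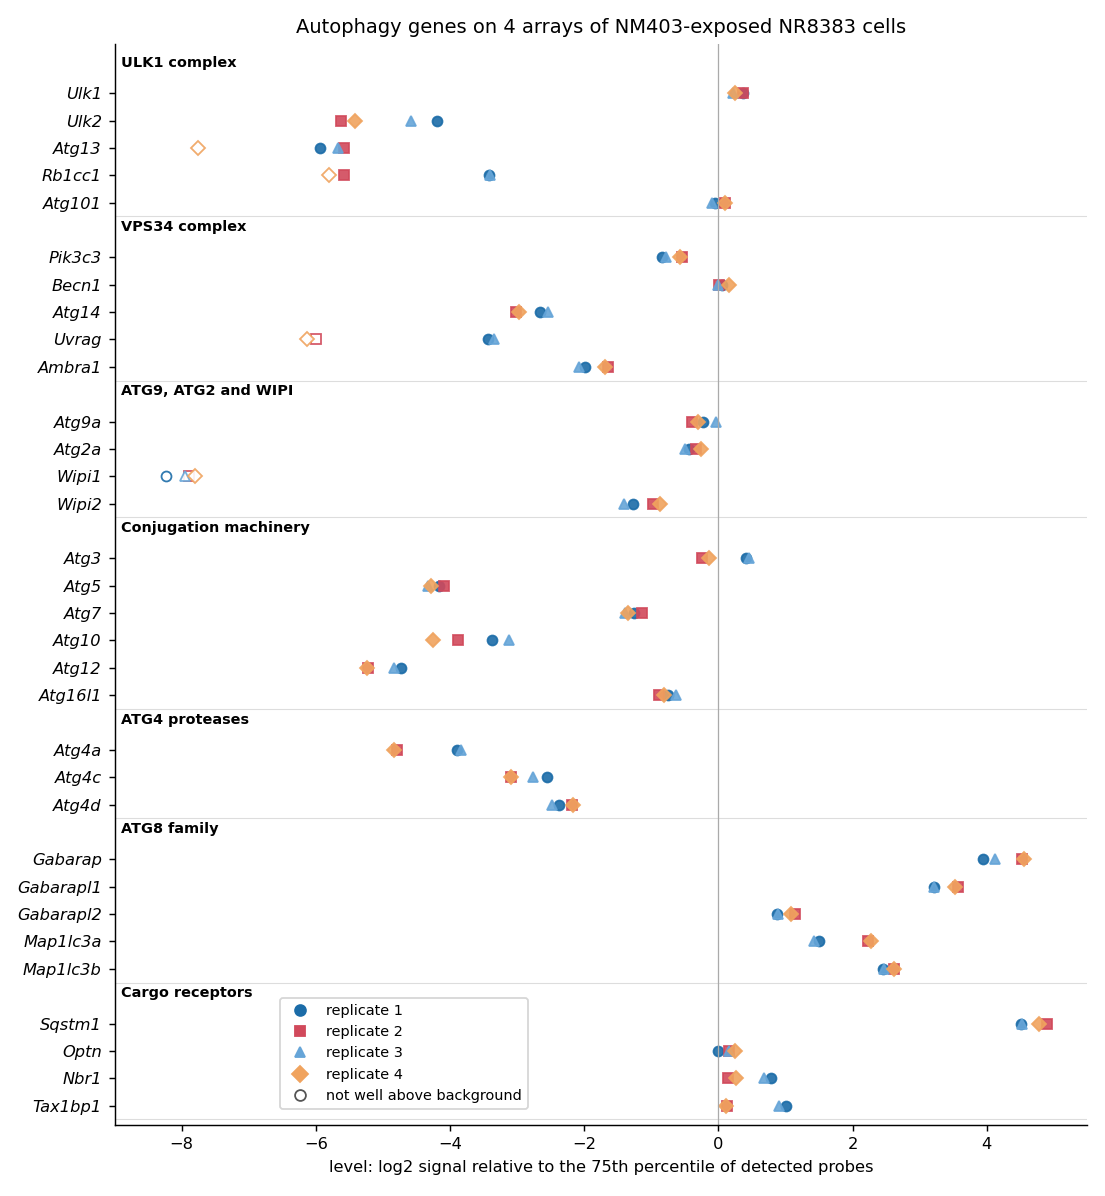
Level of each of the 32 measured autophagy genes on each array, in log2 units relative to the 75th percentile of detected probes, grouped by role; each point is 1 array and open points mark arrays where the gene was not well above background. Wipi1 has open points alone, Uvrag has them on replicates 2 and 4, and Gabarap, Gabarapl1, Map1lc3b and Sqstm1 lie above 2 on every array.

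The 4 cultures differed little in most members. The median SD over arrays was 0.19 on the log2 scale for the 28 members, against 0.23 for all named genes detected on all arrays. The members' median level was -0.31, against -1.53 for those genes, and the part of level in the SDs was not tested. In the median member the highest array was 1.30-fold over the lowest, against 1.40-fold for all named genes. Only Ulk2 and Atg10, 2 of 28 members, had a range above 2-fold (7.14%), where 13.6% of all named genes had one. With quantile normalization 0 members had such a range, against 13.4% of all named genes, and without replicate 3 the count was 1, against 11.9%. The main count leaves out the members not called on every array. Among those, replicate 3 was at least 4.66-fold over replicate 4 in Rb1cc1 and 4.87-fold in Uvrag. Atg4a, at 1.99-fold, lay just under the 2-fold limit. Feature Extraction's own modelled error of a signal was 0.145 on the log2 scale for the median gene. In 7 members the highest and lowest arrays differed by more than 3 combined modelled errors: Atg3, Atg4a, Atg10, Map1lc3a, Nbr1, Tax1bp1 and Ulk2. That is 25% of the members, against 31.6% of all named genes. A single array apart from the other 3, by Dixon's gap test, was found for 0 of the 28 members and for 2.02% of all named genes.

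**Figure D2:**
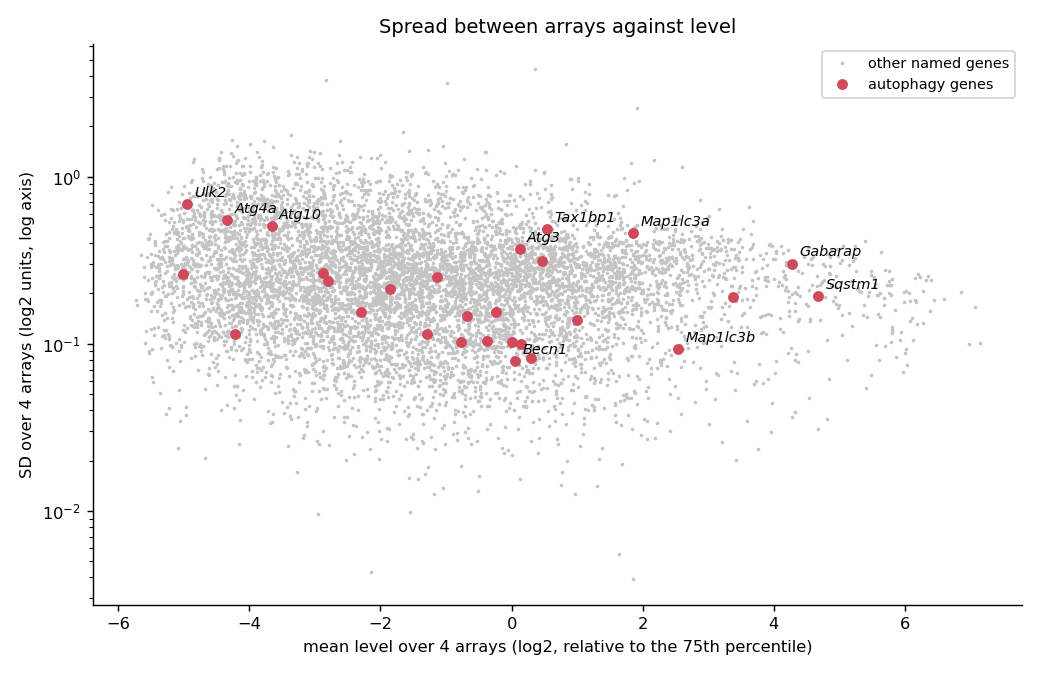
SD over the 4 arrays (log2 units, on a log axis) against the mean level for the 28 autophagy genes (red) and the other named genes detected on all arrays (grey). The autophagy genes lie within the grey cloud, from an SD of 0.08 for Becn1 to 0.68 for Ulk2.

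The members did not all follow the pairs of arrays in the same direction. Replicates 1 and 3 were the highest arrays for 11 members (39.3%), against 34.5% of all named genes. Replicates 2 and 4 were the highest for 12 members (42.9%), against 47.3% of all named genes. The other 5 members, Atg5, Atg7, Becn1, Optn and Ulk1, had another order. These splits depend on the scaling, because the median gene lay between 0.04 and 0.05 above or below its own mean on each array in the main setting and up to 0.25 away from it under the other scalings. With the percentile taken over all non-control probes, 6 members had replicates 1 and 3 highest and 19 had replicates 2 and 4, against 19.0% and 69.9% of all named genes. With the median of detected probes the members split 9 and 17, against 24.6% and 61.4% of all named genes, and with quantile normalization 8 and 12, against 27.7% and 57.8%. The highest arrays give only the order of the readings: in 16 of the 28 members the range was under 2 combined modelled errors. That count was not made over all named genes. Under all 6 ways of processing that were compared, 15 of the 28 members kept the same highest arrays. The share of all named genes that did so was not computed, so this count does not set the members apart. Replicates 1 and 3 stayed highest for Atg3, Atg4a, Atg10, Nbr1, Tax1bp1 and Ulk2, 6 in all. The 9 members that kept replicates 2 and 4 were Gabarap, Gabarapl1, Gabarapl2, Map1lc3a, Ambra1, Atg2a, Atg101, Pik3c3 and Wipi2.

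**Figure D3:**
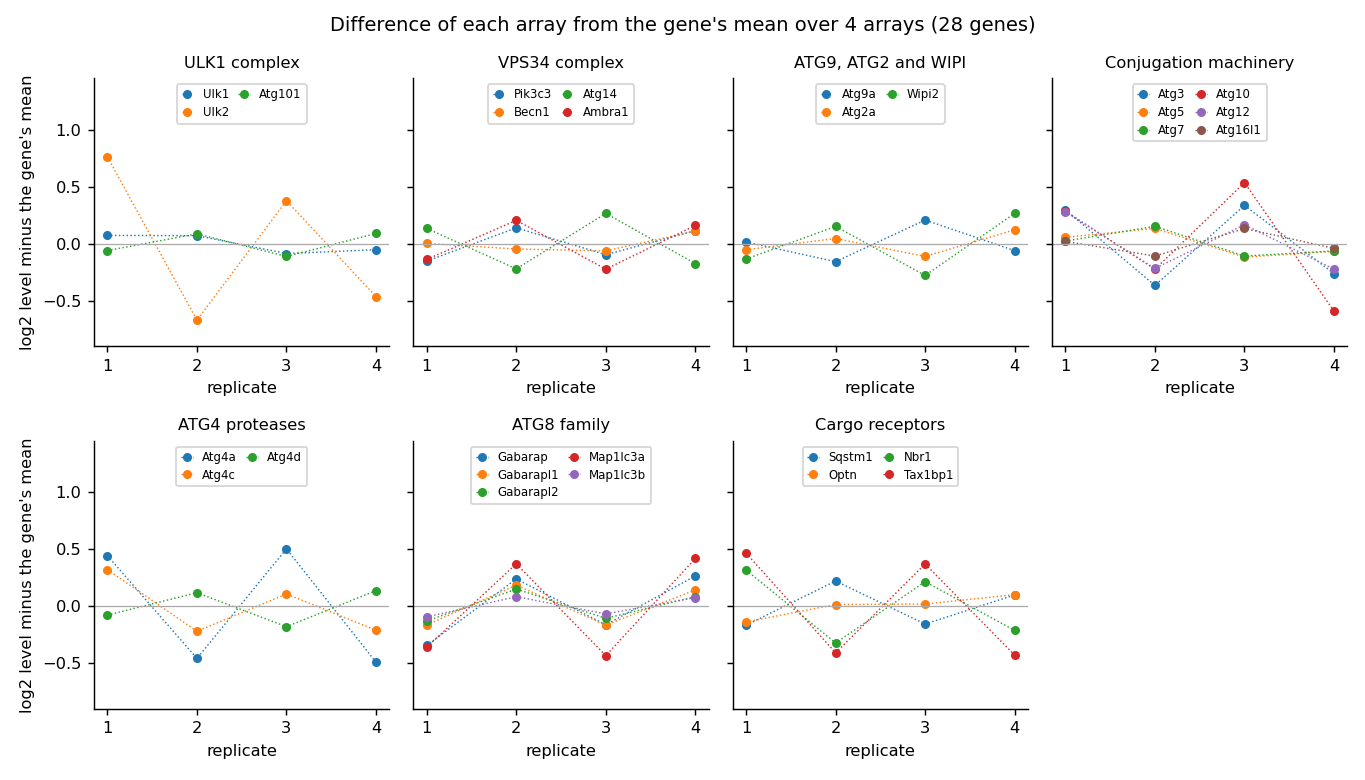
Difference of each array from the gene's own mean over the 4 arrays, in log2 units, for the 28 autophagy genes detected on all arrays, 1 panel for each role; dotted lines join the points of 1 gene and replicates have no order. In the ATG8 panel all 5 genes lie above their mean on replicates 2 and 4, whereas in the conjugation panel Atg3, Atg10, Atg12 and Atg16l1 lie above it on replicates 1 and 3.

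The ATG8 family, the proteins that coat the autophagosome, was detected in full on all arrays, as were 47.9% of all named genes. The highest readings of each of its 5 genes came from replicates 2 and 4, as did those of 47.3% of all named genes. The 9 probes of these 5 genes detected on all arrays had the same highest arrays. In 3 of the genes, Gabarapl1, Gabarapl2 and Map1lc3b, the range was under 2 combined modelled errors, so the arrays are not told apart for them. Gabarap, whose product acts late in autophagosome closure and in transport of receptors, read 3.94, 4.52, 4.12 and 4.55 on replicates 1 to 4. The higher readings came from replicates 2 and 4, and the highest was 1.53-fold over the lowest (4.28 ± 0.30). Its relative Gabarapl1 read 3.22, 3.57, 3.22 and 3.53, a 1.28-fold range (3.38 ± 0.19). The Gabarapl1 probe was printed 10 times, and its spots on 1 array had a median SD of 0.04, which leaves out error shared by the spots of an array. Gabarapl2 read 0.87, 1.15, 0.89 and 1.08 (1.0 ± 0.14), with a second probe between 0.14 and 0.58.

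Of both LC3 genes measured, Map1lc3a varied more. It read 1.50, 2.23, 1.42 and 2.27 over the replicates, spanning 1.81-fold (1.85 ± 0.46), and its range was 4.18 combined modelled errors. Map1lc3b, which encodes the LC3 form commonly used to follow autophagosomes, read 2.45, 2.62, 2.47 and 2.62, a 1.13-fold range (2.54 ± 0.09), which lay within 1 combined modelled error. Under quantile normalization its highest arrays were replicates 1 and 3, so the order of the arrays for Map1lc3b depends on the processing. Its other 3 probes had SDs of 0.06, 0.19 and 0.19, and a probe printed 10 times per array read 1.76, 2.10, 1.80 and 2.13.

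Upstream sequence of 2 of these genes is shown with that of Sqstm1 and of 2 members that read highest on the opposite arrays, Atg3 and Tax1bp1, so that upstream sequence of members with different highest arrays can be seen side by side. For Map1lc3b and Sqstm1 that order changed under quantile normalization. The sequences are the 250 bases before the annotated start in RefSeq on the build GRCr8, read 5′ to 3′ on the strand of the gene. Capitals mark matches, on either strand, to any of 4 motifs: CACGTG, the core of the site bound by the lysosomal regulators TFEB and TFE3; TGACNNNGC, the core of the antioxidant response element bound by NRF2; TGANTCA, the site type bound by AP-1; and CCGCCC, the GC box bound by Sp1. Matches of different motifs do not overlap in the windows shown.
Gabarap (chr10:55213215-55213464, + strand): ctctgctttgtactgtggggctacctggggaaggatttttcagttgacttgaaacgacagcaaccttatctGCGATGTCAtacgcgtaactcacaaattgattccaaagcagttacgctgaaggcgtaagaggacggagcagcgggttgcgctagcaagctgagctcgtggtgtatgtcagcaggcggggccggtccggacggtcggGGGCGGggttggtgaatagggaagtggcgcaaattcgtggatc
Map1lc3b (chr19:66574345-66574594, + strand): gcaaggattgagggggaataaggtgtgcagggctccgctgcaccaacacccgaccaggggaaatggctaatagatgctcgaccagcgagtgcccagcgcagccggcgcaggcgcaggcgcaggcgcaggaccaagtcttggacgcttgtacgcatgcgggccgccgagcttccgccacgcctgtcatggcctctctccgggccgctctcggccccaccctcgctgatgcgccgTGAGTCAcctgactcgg
Sqstm1 (chr10:35037751-35038000, - strand): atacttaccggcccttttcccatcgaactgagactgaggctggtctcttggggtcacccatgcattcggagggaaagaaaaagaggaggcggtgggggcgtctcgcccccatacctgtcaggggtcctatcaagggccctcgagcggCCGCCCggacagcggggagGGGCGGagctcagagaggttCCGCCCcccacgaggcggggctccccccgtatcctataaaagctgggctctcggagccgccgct
Atg3 (chr11:69159281-69159530, - strand): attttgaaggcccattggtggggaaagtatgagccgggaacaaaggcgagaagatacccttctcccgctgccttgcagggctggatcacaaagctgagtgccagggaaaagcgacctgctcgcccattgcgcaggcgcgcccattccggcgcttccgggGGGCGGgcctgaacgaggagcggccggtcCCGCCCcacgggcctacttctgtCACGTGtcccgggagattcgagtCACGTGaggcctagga
Tax1bp1 (chr4:83152373-83152622, + strand): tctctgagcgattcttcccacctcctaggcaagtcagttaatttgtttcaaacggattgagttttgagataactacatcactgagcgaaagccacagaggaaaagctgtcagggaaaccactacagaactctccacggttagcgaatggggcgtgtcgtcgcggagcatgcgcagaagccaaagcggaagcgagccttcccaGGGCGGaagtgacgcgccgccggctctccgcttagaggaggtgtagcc

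A window was found for 31 of the 35 members, 32 windows in all, because Uvrag had 2. Map1lc3a, Becn1, Atg9a and Rb1cc1 had no entry. The TFEB core CACGTG was in 2 of the 32 windows, those of Atg3 and Atg5, where 5.59% of all 33469 windows hold it, and the Atg3 window holds it at 2 places. The NRF2 core TGACNNNGC was in 4 windows, of Atg4d, Atg10, Gabarap and Ulk2, against 10.1% of all windows. The AP-1 type site TGANTCA was in 1, that of Map1lc3b, against 6.34%. The GC box was in 21 windows, against 30.5% of all, and the Sqstm1 window holds it at 3 places. A match describes letters in this window and no binding was measured.

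The ATG4 proteases, which trim new ATG8 proteins and cut them from the membrane again, did not share 1 order in the main setting. Atg4a read -3.89, -4.80, -3.83 and -4.83, spanning 1.99-fold (-4.34 ± 0.55). Replicates 1 and 3 were higher, opposite to the ATG8 genes. Atg4c, at -2.56, -3.10, -2.77 and -3.09 (-2.88 ± 0.26), had the same 2 highest arrays, though not under 2 of the 5 other ways of processing. Atg4d read -2.38, -2.18, -2.48 and -2.16, a 1.25-fold range (-2.30 ± 0.15), highest on replicates 2 and 4. The Atg4d range was 1.52 combined modelled errors, so the arrays are not told apart for it. Under another way of processing its highest arrays were replicates 1 and 2.

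Genes of the conjugation systems were detected on all arrays in all 6 cases, where 47.9% of all named genes were. Atg3, the E2-like enzyme that hands ATG8 proteins to the membrane lipid, read 0.42, -0.25, 0.46 and -0.14, spanning 1.63-fold (0.12 ± 0.37). Replicates 1 and 3 were higher, and the range was 3.44 combined modelled errors. The E2-like enzyme of the ATG12 system, Atg10, read -3.37, -3.88, -3.12 and -4.25, a 2.19-fold range (-3.66 ± 0.51), and a second probe of it was never called. Both E2-like genes therefore shared their highest arrays. Atg7, the E1-like enzyme that serves both systems, was steady at -1.26, -1.13, -1.39 and -1.35 (-1.28 ± 0.11), and its second probe was never called either.

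The ubiquitin-like protein gene Atg12 read -4.73, -5.23, -4.84 and -5.23, a 1.42-fold range (-5.01 ± 0.26). Its partner Atg5, to which ATG12 is joined, read -4.16, -4.08, -4.33 and -4.28 (-4.22 ± 0.11). Atg16l1, which carries that pair to the membrane, read -0.75, -0.88, -0.64 and -0.81 (-0.77 ± 0.10). The ranges of these 3 genes lay within 2 combined modelled errors, so the arrays are not told apart for them. Atg12 lay near the level where probes stop being called, which was between -6.23 and -5.63 on the 4 arrays, and Atg5 lay further above it.

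Among the ULK1 complex, the kinase gene Ulk1 had a narrow range and its paralogue Ulk2 a wide one. Ulk1 read 0.37, 0.37, 0.21 and 0.25, spanning 1.12-fold (0.30 ± 0.08). Ulk2 read -4.19, -5.62, -4.58 and -5.42, a 2.70-fold range and the widest of the 28 members (-4.95 ± 0.68). On replicates 2 and 4 it lay near the lowest called levels of those arrays, -6.07 and -5.63, which limits this range. Replicates 1 and 3 were higher for Ulk2, and its second probe was well above background on those 2 arrays alone, at -4.71 and -4.49, with readings of -6.49 and -7.22 on replicates 2 and 4. Of the 24 spots around the Ulk2 probe, 3 read at least 4-fold brighter on replicate 4 than elsewhere, and 0 did so on replicates 1, 2 and 3. Atg101, a scaffold subunit, read -0.05, 0.10, -0.10 and 0.10 (0.01 ± 0.10), within 1 combined modelled error.

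The other subunits of that complex were not called on every array. Rb1cc1, which encodes the large scaffold FIP200, read -3.41, -5.58, -3.41 and -5.81 and was not well above background on replicate 4. Replicate 3 was at least 4.66-fold over replicate 4, taking the lowest called signal on replicate 4 as the bound. A second Rb1cc1 probe, also called on replicates 1, 2 and 3, read -3.73, -5.42, -3.80 and -5.77 and so had the same 2 highest arrays. Atg13, the subunit that ties the kinase to FIP200, read -5.93, -5.58, -5.67 and -7.76, and was not well above background on replicate 4. No fold is given for Atg13 because its called readings lay at the level of that bound.

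The VPS34 complex held 1 member with a wide gap between arrays and 4 with narrow ranges. Uvrag, a subunit of the form of the complex that acts on endosomes and late autophagosomes, read -3.43, -6.00, -3.34 and -6.13 on replicates 1 to 4. It was well above background on replicates 1 and 3 alone, and replicate 3 was at least 4.87-fold over replicate 4. Of the 24 spots around the Uvrag probe, 1 was that much brighter on replicate 1 and 1 on replicate 3. Atg14, the subunit of the form that starts autophagosomes, read -2.67, -3.02, -2.53 and -2.97, a 1.40-fold range (-2.80 ± 0.24). Atg14 shared its 2 highest arrays with Uvrag, but under 2 other ways of processing replicates 3 and 4 were highest.

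The remaining VPS34 genes ran the other way or had no clear order. Pik3c3, the lipid kinase VPS34 itself, read -0.83, -0.54, -0.78 and -0.57, a 1.22-fold range (-0.68 ± 0.15). Ambra1, a regulator that binds beclin 1, read -1.99, -1.64, -2.07 and -1.69, a 1.35-fold range (-1.85 ± 0.21). Both were highest on replicates 2 and 4, but the Pik3c3 range was 1.43 combined modelled errors, so the arrays are not told apart for that gene. Becn1, which encodes beclin 1, had the smallest SD of the 28 members, at 0.05, 0.00, -0.01 and 0.16 (0.05 ± 0.08), and its SD was 0.03 without replicate 4.

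The genes that supply and mark membrane were detected except for Wipi1. Atg9a, the transmembrane protein of the seed vesicles, read -0.22, -0.40, -0.03 and -0.30 (-0.24 ± 0.15), with an SD of 0.09 without replicate 3. A second Atg9a probe read -0.15, -0.40, -0.06 and -0.42, so that both had replicates 1 and 3 highest in the main setting. The range of the brighter Atg9a probe was 1.79 combined modelled errors, so the arrays are not told apart for it. With scaling on all non-control probes replicates 2 and 4 were highest for Atg9a, and with the median of detected probes replicates 3 and 4. Atg2a, a lipid transfer protein, read -0.44, -0.34, -0.49 and -0.26, a 1.18-fold range (-0.38 ± 0.10) of 1.15 combined modelled errors. Wipi2, which reads the lipid mark and recruits ATG16L1, read -1.27, -0.98, -1.41 and -0.87, a 1.46-fold range (-1.13 ± 0.25), and replicates 2 and 4 were higher. Its relative Wipi1 read between -8.23 and -7.79 on its single probe and was called on 0 arrays, which says nothing on whether these cells make a low level of it.

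All 4 cargo receptors were detected on all arrays, where 47.9% of all named genes were, and the orders of the 4 receptors differed. Sqstm1, which encodes p62, read 4.51, 4.90, 4.52 and 4.78, spanning 1.31-fold (4.68 ± 0.19). Replicates 2 and 4 gave the highest readings, though the range was 1.90 combined modelled errors, and the other 2 Sqstm1 probes, with SDs of 0.15 and 0.14, had the same highest arrays. Under quantile normalization replicates 1 and 2 were highest for Sqstm1. Tax1bp1, a ubiquitin-binding receptor that also limits inflammatory signalling, read 1.0, 0.13, 0.91 and 0.11, spanning 1.86-fold (0.54 ± 0.49). Replicates 1 and 3 were higher for it, and the range was 4.39 combined modelled errors.

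For Nbr1 and Optn the probes of 1 gene disagreed. The brighter probe of Nbr1, a receptor related to p62, read 0.79, 0.15, 0.69 and 0.26, a 1.56-fold range (0.47 ± 0.31), while its second probe read -1.25, -1.41, -1.32 and -1.30, a 1.12-fold range. Optn encodes optineurin, a receptor for damaged mitochondria and bacteria. Its brightest probe read 0.00, 0.15, 0.16 and 0.24 (0.14 ± 0.10), and the SD was 0.05 without replicate 1. The other 2 Optn probes read -1.60, -2.26, -1.64 and -2.36, and -2.46, -2.86, -2.43 and -2.96, both highest on replicates 1 and 3. Of the 6 members with several probes detected on all arrays, 4 had the same highest arrays on every such probe (Atg9a, Gabarapl2, Map1lc3b and Sqstm1) and 2 did not, so the spread of a gene with 1 probe, as 22 of the 32 members have, could not be checked in this way.

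**Figure D4:**
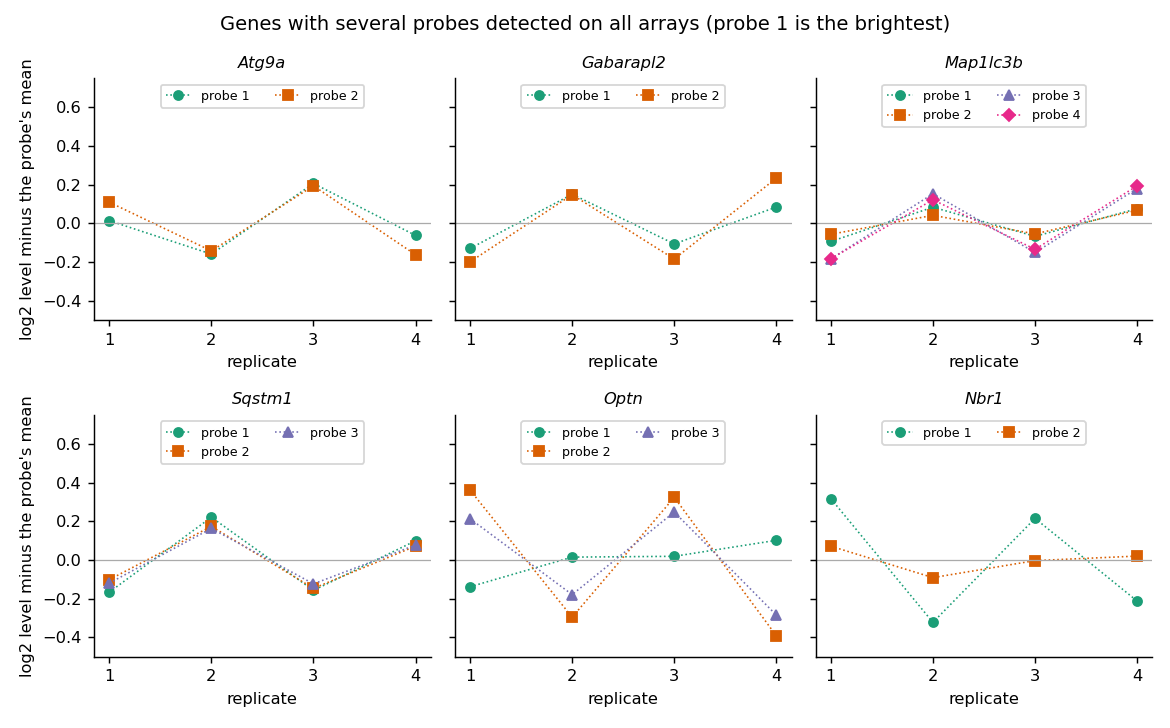
Difference of each array from the probe's own mean, in log2 units, for the 6 autophagy genes with several probes detected on all arrays; each colour is 1 probe, dotted lines join its points, and replicates have no order. The probes of Map1lc3b and Sqstm1 move together, whereas the brightest Optn probe and the second Nbr1 probe stay close to their means and their partners do not.

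Genes around the core machinery were also mostly detected. Of the other ATG and early autophagosome genes, 10 of 12 with a probe were detected on all arrays, where 47.9% of all named genes were, and 0 had a range above 2-fold, where 13.6% of all named genes had one. Atg9b and Svip were detected on none of them. Their widest range was that of Wdr45, a relative of the WIPI genes, which read -2.05, -1.49, -1.87 and -1.28 (1.70-fold). Among genes of nutrient and energy control, 21 of 24 were detected on all arrays. Tfeb, the lysosomal and autophagy transcription factor, read -2.22, -2.04, -2.20 and -1.76, and its relative Tfe3 read 1.04, 1.32, 0.95 and 1.25. Sesn3, an inhibitor of mTORC1 signalling, read -2.50, -4.18, -2.48 and -3.92, a 3.25-fold range, and was the single gene above 2-fold among those of that list detected on all arrays. Fnip1 of the same list was called on 3 arrays, and replicate 1 was 5.51-fold over replicate 2.

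All 16 measured genes of autophagosome to lysosome fusion were detected on all arrays, where 47.9% of all named genes were. The SNARE gene Stx17, which sits on closed autophagosomes, read -3.57, -4.86, -3.56 and -5.00, a 2.70-fold range. Its partner Snap29 read 0.70, 0.46, 0.71 and 0.57, a 1.19-fold range. Both had replicates 1 and 3 highest, as had 34.5% of all named genes. Vamp8, the third SNARE, read 2.55, 3.12, 2.30 and 3.00, with replicates 2 and 4 highest. Of other selective autophagy genes, 16 of 19 were detected on all arrays. Ccpg1, an endoplasmic reticulum receptor, read -1.99, -2.94, -1.85 and -2.38, a 2.14-fold range. The median SD of these 4 lists lay between 0.17 and 0.23, against 0.19 for the members.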

How the data were processed

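Messenger RNA of 4 NM403-exposed NR8383 cultures was measured on 1-colour (Cy3) Agilent rat arrays, 1 array for each culture, from 100 ng RNA per the labels' protocols. The deposited scanner files give an intensity for each spot, and the submitters' processing notes name Agilent Feature Extraction 11.0.1.1. Background subtraction and spatial detrending had been applied to the processed intensity on each array separately, per the file headers, which also give a modelled error and name no scaling across arrays. The array design names the build rn4.

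Control spots and outlier-flagged spots were left out (623 to 1016 per array), and spots of a probe were averaged as log2. Repeated probes were called where over 50% of their spots were well above background. Probe accessions were matched without version to RefSeq genes of GRCr8: 21109 of 45598 probes (46.3%) matched 1 symbol. As 34.2% of probes were detected on all arrays, scaling used the 75th percentile of those. With 1 group there is no contrast and no test. A gene's bound where it was not called was the higher of its own reading and the lowest called signal on that array. Neighbouring spots were those within 2 rows and columns, with signals floored at 50.

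The members and lists were chosen with earlier results of these data known. Every member was named; of related lists the widest ranges and genes not detected were eligible, and other related genes (Tfeb, Tfe3, Snap29, Lgals3, Lgals8, Fnip1, Fundc1, Retreg1 and Rragc) were picked after their values were seen. The replicates are labelled biological. Scaling and SDs were tested on simulated data. Alternatives were detection rules, scalings, quantile normalization, normexp with an offset of 50 (on the median spot intensity), the mean over probes and leaving out each replicate. Tools were Python 3.11.15, numpy 2.4.6, pandas 2.3.3, matplotlib 3.10.9 and limma 3.58.1 in R 4.3.3.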

Additional observations from a re-analysis of the deposited data

How the results depend on the processing

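The count of members detected on all arrays (28) ran from 25, when every named probe of a gene had to be detected, to 30 with a threshold at the 99th percentile of the negative controls, and from 28 to 30 on leaving out 1 replicate. The median SD of the members (0.19) moved to 0.31 with scaling on all non-control probes, where that of all named genes was 0.35. That of the members lay between 0.14 and 0.23 under the other scalings, normalizations and probe rules, and between 0.17 and 0.22 on leaving out 1 replicate. Members and all named genes had 0.19 and 0.21 with normexp, 0.22 and 0.23 without replicate 4, and 0.14 and 0.25 with quantile normalization. The count of members with a range above 2-fold (2) was 0 with quantile normalization and ran from 1 to 2 on leaving out 1 replicate, with 1 without replicate 3. The cause was not tested. The count of members ordered by the pairs of arrays (23) ran from 20 to 26. In the main setting 34.5% of all named genes had replicates 1 and 3 highest and 47.3% replicates 2 and 4. The count was 20 with quantile normalization, where these shares were 27.7% and 57.8%. It was 26 with the median of detected probes, where they were 24.6% and 61.4%. Quantile normalization moved 0 of 28 member levels by more than their SD, normexp 11, the mean over probes 5 and leaving out replicate 4 moved 4. Leaving out 1 replicate moved the SD by over 1.5 times in 5 of 28 members: Atg7 to 0.07 without replicate 2, Atg9a to 0.09 and Atg16l1 to 0.06 without replicate 3, Becn1 to 0.03 without replicate 4 and Optn to 0.05 without replicate 1. The detection counts of related and marker lists, added after seeing the data, moved by over 1.5 times in 3 cases, all in lists of other cell types: 1 epithelial and 2 fibroblast markers with the negative control threshold, and 1 T cell marker when every probe had to be detected. No paired analysis was possible because the arrays form 1 group. Members near the lowest called signals, such as Atg12, Atg13 and Ulk2, are limited by signal over background.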

Other observations

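Genes of LC3-associated phagocytosis and of the response to damaged membranes were mostly detected in the exposed cells. Of 11 such genes with a probe, 10 were detected on all arrays, and 0 had a range above 2-fold, where 47.9% and 13.6% of all named genes did. Cyba and Cybb encode the membrane subunits of the phagocyte oxidase, which LC3-associated phagocytosis needs. Cyba read 5.48, 6.01, 5.55 and 5.95 on replicates 1 to 4, highest on replicates 2 and 4, while Cybb read -2.01, -2.57, -1.92 and -2.51, highest on replicates 1 and 3. Lgals3, a galectin that binds sugars exposed on broken lysosomes and phagosomes, read 6.23, 6.41, 6.36 and 6.11, a 1.23-fold range, and Lgals8, a related sensor, read -1.02, -1.31, -1.08 and -1.38. Trim16, a ubiquitin ligase that works with galectin 3, was called on 0 arrays.

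Some genes of related lists were called on part of the arrays. Fnip1, a partner of folliculin in nutrient sensing, read -3.22, -5.68, -3.48 and -6.41 and was well above background on replicates 1, 2 and 3. Fundc1, a mitochondrial receptor, read -6.26, -5.84, -3.38 and -5.94 over the replicates and was called on replicates 2 and 3. Retreg1, an endoplasmic reticulum receptor, read -4.72 on replicate 2 and -4.20 on replicate 3, where it was called, and -8.44 and -7.91 on replicates 1 and 4. The Rragc spot on replicate 4 was left out as an outlier, and the gene read 3.76, 3.67 and 3.76 on replicates 1, 2 and 3.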
